A study of Mus musculus with 4 samples.

Results

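Haematopoietic progenitor genes were followed in G-MDSC, the granulocytic kind of myeloid-derived suppressor cell, and in neutrophils through 7 genes: Prom1, Cd34, Flt3, Sox4, Hoxa9, Meis1 and Lmo2. They were picked as known surface markers and transcription factors of blood progenitors, with Prom1 already known to differ strongly between these arrays. All array probe sets annotated with 1 of these symbols alone were taken, which gave 17 probe sets for 7 of the 18193 genes measured. Because the same contrast had informed the choice, the values of the 7 genes are a description and carry no test.

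The study holds 2 arrays of G-MDSC and 2 arrays of neutrophils, all from female C57BL/6 mice, measured on Affymetrix 3' expression arrays. G-MDSC, described as CD11b+Ly6G+Ly6Clow, were isolated on Ly6G beads from the spleens of mice that had carried subcutaneous EL4 lymphoma for 3.5 weeks. Neutrophils were washed out of the peritoneum, their tissue labelled as ascitic fluids, of mice given 2 intraperitoneal injections of 1.5 ml of 12% casein 16 h apart, 3 h after the last, and were isolated on beads with removal of F4/80-bearing cells before selection for Ly6G. Cell kind, tissue, tumour, casein and sorting steps changed together, so they cannot be told apart. Nothing in the labels states whether the arrays of a group came from different animals, so the errors below describe these arrays and may be technical. Each standard error (SE) is the moderated one of limma, the fit used here. It draws on the variance of all genes tested, so it is not the spread of a gene's own arrays. The RNA is from whole cell preparations, in which fewer cells of a type and less RNA per cell cannot be told apart.

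Blood stem and multipotent progenitor cells carry receptors and adhesion molecules that are lost as granulocytes mature, and a network of transcription factors keeps them from differentiating. Prom1 encodes prominin-1 (CD133), a membrane protein of cell protrusions, and Cd34 a sialomucin used to isolate progenitors. Flt3 is the receptor tyrosine kinase for FLT3 ligand. Hoxa9 and Meis1 encode homeodomain proteins that bind DNA together, Sox4 a high-mobility-group factor of lymphoid and myeloid progenitors, and Lmo2 a LIM-only protein that bridges TAL1, GATA factors and LDB1 on DNA without binding it directly.

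Since the results turn on Prom1, the 250 bases before each of its RefSeq starts are shown. They are read 5′ to 3′ on the minus strand of GRCm38.p6, with an E-box (CAGNTG on either strand, the kind of site bound by TAL1, a partner of LMO2, with E proteins) in capitals. Both windows lie inside the annotated span of the gene, whose transcripts begin at several places.
Prom1 window at chr5:44101737-44101986: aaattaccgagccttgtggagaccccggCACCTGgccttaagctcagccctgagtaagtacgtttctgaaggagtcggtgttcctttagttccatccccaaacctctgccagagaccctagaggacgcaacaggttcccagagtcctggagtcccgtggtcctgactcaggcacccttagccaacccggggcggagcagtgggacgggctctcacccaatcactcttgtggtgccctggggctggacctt
Prom1 window at chr5:44094769-44095018: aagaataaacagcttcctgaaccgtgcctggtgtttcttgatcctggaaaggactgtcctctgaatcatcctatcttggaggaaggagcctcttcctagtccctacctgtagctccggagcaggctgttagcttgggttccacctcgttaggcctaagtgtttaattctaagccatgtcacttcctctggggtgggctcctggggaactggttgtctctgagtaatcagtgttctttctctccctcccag
The first window holds 1 E-box and the second none. Neither held the letters TGATNNAT, a site of HOX proteins with PBX, on either strand. The MEIS site TGACAG, searched in the same way, was in neither window. The same was true of the SOX site AACAAAG and of the GATA site AGATAA. Windows of the same length were at hand for 6 of the 7 genes, all but Lmo2. Of their 7 windows, 3 held an E-box and 0 held any of the other motifs. Among all 32851 promoter windows of that length, 44.8% held the E-box, 7.68% the HOX with PBX site, 15.9% the MEIS site, 5.03% the SOX site and 9.99% the GATA site. These are matches of letters and do not show binding.

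Before the members, 1 array has to be set apart. Neutrophils replicate 2 had a median signal of 177.9, against 75.8 to 83.3 in the other 3 arrays, and a 40th percentile of 132.7, against 45.7 to 52.6. Its low end was thus raised, so signals that the results turn on are also given as percentiles within their own array. A signal at or below the 40th percentile of its array is called dim here. The 2 G-MDSC arrays correlated at Pearson's r = 0.953 and the 2 neutrophil arrays at r = 0.875. Defining markers of granulocytes were present in both groups. Csf3r, the G-CSF receptor, had signals of 19174 and 27611 in the G-MDSC arrays and 14881 and 15292 in neutrophils, and 0 of the 12 granulocyte markers measured were dim in all arrays. Of these 12, 4 were higher in G-MDSC by limma and 0 lower, beside 8.3% and 8.05% of all genes. The 4 were Camp (5.10 on the log2 scale), Ltf (4.38), Ngp (2.54) and the chemokine receptor gene Cxcr2 (1.24). Camp, Ltf and Ngp encode proteins of specific granules. The granulocyte list summed to 333889 and 400506 in the G-MDSC arrays and 253978 and 308167 in neutrophils, and its part in the members' differences was not tested.

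The 7 genes differed in level and in direction. Prom1 was far higher in G-MDSC, Lmo2 was bright in all 4 arrays, and the other 5 genes were at or near the dim limit in G-MDSC, with Hoxa9 and Cd34 lower there than in neutrophils. Of the 17 probe sets, 11 exceeded the 40th percentile in at least 2 arrays and entered the fit, at least 1 for each of the 7 genes. Of the rest, 5 were dim in all 4 arrays and 1 was above the limit in 1 array. Prom1 entered through the G-MDSC arrays alone and the Hoxa9 probe set 1421579_at through the neutrophil arrays alone. By limma with Benjamini-Hochberg adjustment, 1 of the 7 genes passed the threshold of 0.05 as higher and 1 as lower in G-MDSC, where 16.4% of 13139 genes passed, 8.3% as higher and 8.05% as lower. These numbers depended on the arrays, as did those of all genes. The lower call was lost without neutrophils replicate 2 and without either G-MDSC array. Without neutrophils replicate 1 more members were called lower, but so were more of all genes. The lower call, Hoxa9, was also lost with no filter, without the intensity trend of limma, with the median of probe sets, with the fit over all kept probe sets and with the floor, in 8 of 15 alternatives in all, and the higher call, Prom1, was lost with the floor. The groups' arrays did not overlap for 3 of the 7 genes, against 59.5% of all genes. The rule used this contrast, so the counts only describe it.

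**Figure D1:**
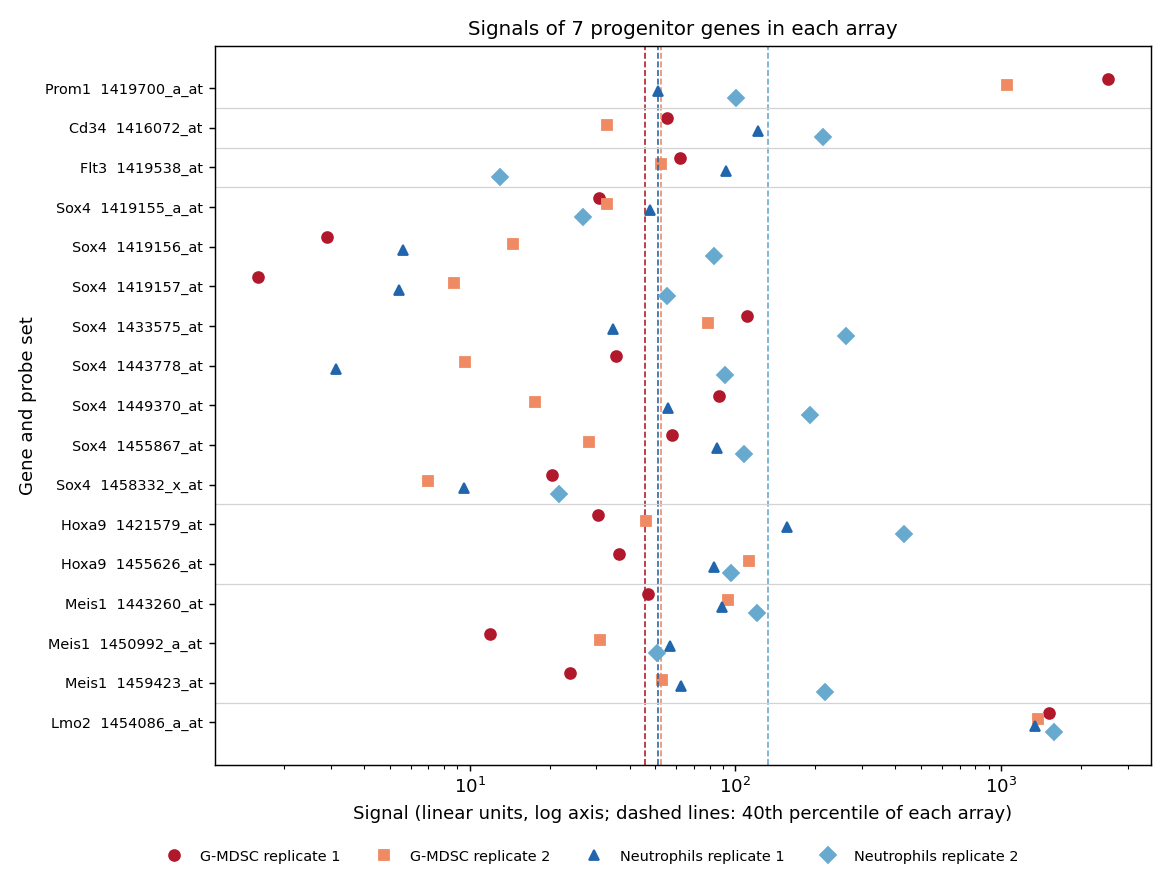
Signal of each of the 17 probe sets (rows, grouped by gene) in each array, on a log axis of linear signal units; red symbols are the 2 G-MDSC arrays, blue symbols the 2 neutrophil arrays, and dashed lines mark the 40th percentile of each array. Prom1 reads 2521 and 1049 in the G-MDSC arrays against 50.9 and 100.4 in neutrophils, Lmo2 lies between 1336 and 1577 in all 4 arrays, and most other symbols lie near or left of the dashed lines.

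Among the surface markers, Prom1 was bright in G-MDSC. Its probe set, 1419700_a_at, had signals of 2521 and 1049 in G-MDSC and of 50.9 and 100.4 in neutrophils. Within their arrays these were percentiles 92.8 and 86.2 in the G-MDSC arrays and 39.8 and 31.3 in neutrophils. Prom1 was thus among the brighter probe sets of both G-MDSC arrays and dim in both neutrophil arrays. The log2 difference, G-MDSC minus neutrophils on the scale of log2(signal + 16), was 4.22 ± 0.47 (SE, n = 2 per group), a value that rests on dim neutrophil signals. With the neutrophil arrays at their 40th percentiles, the G-MDSC signal of Prom1 was at least 16.4-fold higher. The bound was 10.6-fold without G-MDSC replicate 1, 25.3-fold without G-MDSC replicate 2, 24.4-fold when neutrophils replicate 2 was left out, and 11.05-fold without neutrophils replicate 1 or with the 40th percentile of neutrophils replicate 2, the highest of the 4, as a common floor. The same-numbered arrays differed by 5.24 for replicate 1 and 3.19 for replicate 2.

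Cd34 and Flt3, the other surface markers, were close to the dim limit. Cd34 had signals of 55.5 and 32.9 in G-MDSC and of 121.5 and 214 in neutrophils, or percentiles 44.1 and 29.5 in the G-MDSC arrays and 57.2 and 56.4 in neutrophils. Both G-MDSC arrays were thus below both neutrophil arrays on either scale, and the neutrophil arrays, apart in signal, were nearly level in percentile. The log2 difference of Cd34 was -1.59 ± 0.69 (SE, n = 2 per group), and -1.22 without neutrophils replicate 2. With signals under a common floor raised to it, the Cd34 difference was -0.34. Flt3 had signals of 61.7 and 52.4 in G-MDSC and of 92.5 and 13.1 in neutrophils. The neutrophil arrays lay on either side of the G-MDSC arrays and 7.07-fold from each other, at percentiles 52.1 and 5.1. The log2 difference of Flt3 was 0.38 ± 1.04 (SE), and its sign was decided by 1 array: it was -0.57 without neutrophils replicate 2 and 1.33 without neutrophils replicate 1.

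Hoxa9 was lower in G-MDSC by 1 of its 2 probe sets. Probe set 1421579_at had signals of 30.5 and 46 in G-MDSC, both dim, and of 157 and 432.2 in neutrophils. In percentiles these were 32 and 36.7 in the G-MDSC arrays and 61.6 and 75.3 in neutrophils, again without overlap. The log2 difference was -2.38 ± 0.65 (SE, n = 2 per group), or -1.69 without neutrophils replicate 2 and -3.06 without neutrophils replicate 1. Set against the dim limit of the G-MDSC arrays, neutrophils had at least 4.28-fold more signal. This bound was 2.66-fold without neutrophils replicate 2, 6.89-fold without neutrophils replicate 1 and 1.87-fold with the common floor. Probe set 1455626_at read 36.6 and 112.6 in the G-MDSC arrays and 83 and 95.9 in neutrophils, so the groups overlapped, with a log2 difference of -0.36. The probe sets of Hoxa9 therefore disagree on the size of the difference, and the reason was not tested.

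Meis1, the DNA-binding partner of HOXA9, was measured by 3 probe sets, all dim in part. Probe set 1443260_at had signals of 47 and 93.5 in G-MDSC and of 88.9 and 120.9 in neutrophils. Its groups overlapped, and its log2 difference was -0.53 ± 0.70 (SE, n = 2 per group). Probe set 1459423_at read 23.9 and 53.1 in the G-MDSC arrays and 62.6 and 216.4 in neutrophils, with a difference of -1.36. Probe set 1450992_a_at read 12 and 31 in the G-MDSC arrays and 56.6 and 50.5 in neutrophils, with a difference of -0.94. The last 2 did not overlap in signal, but in percentile only 1459423_at kept the groups apart. All 3 differences were negative, as was the median difference of all genes, -0.18. Relative to that median the 3 ran from -1.18 to -0.35. The median itself depended on the filter, at -0.32 with no filter and 0.05 with a filter at the 60th percentile. It is therefore no exact baseline for dim probe sets.

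Sox4 had 8 probe sets, of which 3 entered the fit and 5 were dim in all 4 arrays. The probe set that stood for the gene, 1433575_at, read 110.9 and 78.7 in the G-MDSC arrays and 34.6 and 261.7 in neutrophils. The neutrophil arrays enclosed both G-MDSC arrays and were 7.57-fold apart, with neutrophils replicate 2 the higher. The log2 difference was -0.11 ± 0.81 (SE, n = 2 per group), and it was 1.12 without neutrophils replicate 2 and -1.34 without neutrophils replicate 1. Probe set 1449370_at read 86.4 and 17.6 in the G-MDSC arrays and 55.6 and 190.9 in neutrophils, with overlap. Probe set 1455867_at read 57.7 and 28.1 in the G-MDSC arrays and 85.2 and 107.9 in neutrophils, without overlap in signal but with overlap in percentile. The 5 dim probe sets of Sox4 had signals between 1.60 and 91.4. All 8 differences were negative, from -1.05 to -0.10, yet none of the 8 kept the groups apart in percentile. Over all 17 probe sets, 12 had their highest signal in neutrophils replicate 2, the array with the raised low end, and its part in these differences was not tested.

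Lmo2 was bright and level. Its probe set, 1454086_a_at, had signals of 1508 and 1370 in G-MDSC and of 1336 and 1577 in neutrophils, at percentiles 88.8 and 88.5 in the G-MDSC arrays and 88.3 and 90.9 in neutrophils. The groups overlapped, and the neutrophil arrays held both the lowest and the highest value. The log2 difference was -0.01 ± 0.31 (SE, n = 2 per group), and 98.8% of the genes tested had a larger absolute difference. It moved between -0.13 and 0.10 when each array was left out. With each array scaled to the same median signal it was 0.62, where the median of all genes was 0.42.

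**Figure D2:**
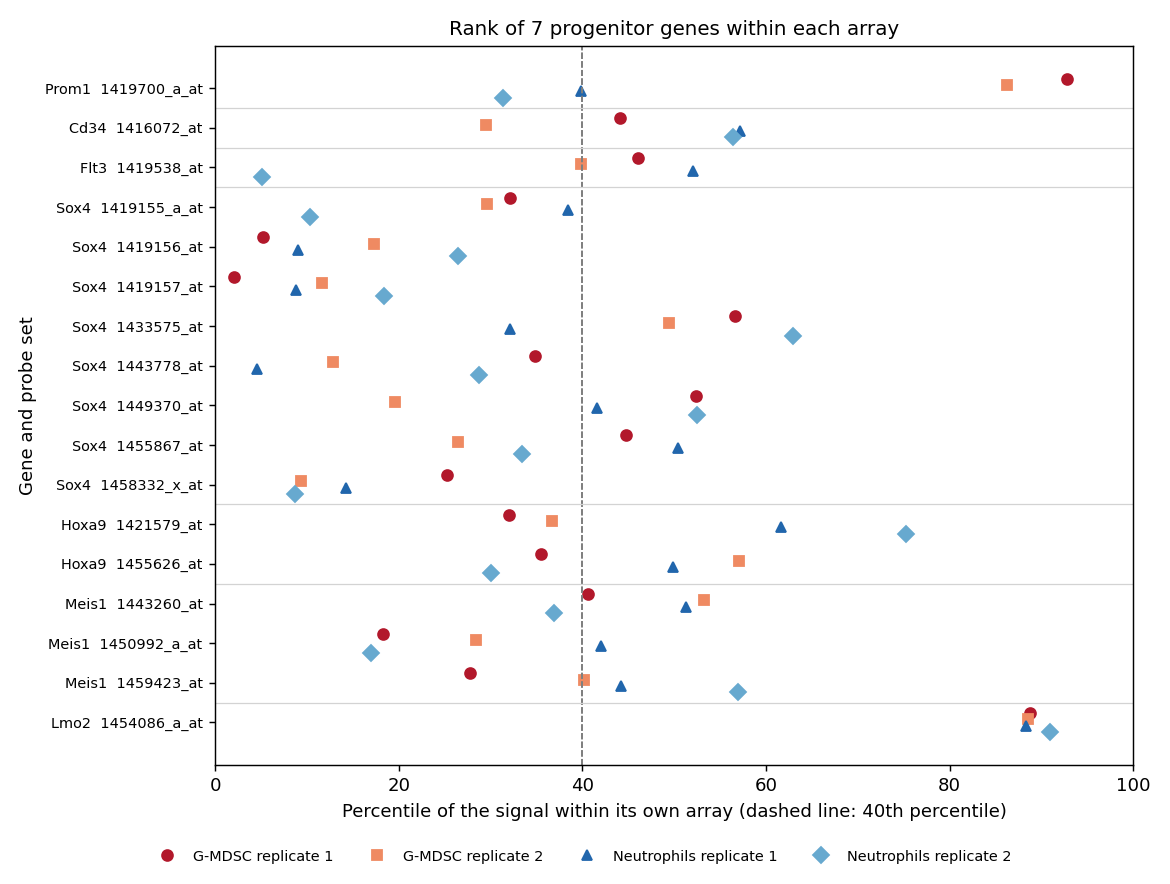
Percentile of each probe set's signal within its own array (horizontal axis, 0 to 100) for the same 17 probe sets, with red symbols for the 2 G-MDSC arrays, blue symbols for the 2 neutrophil arrays and a dashed line at the 40th percentile. Prom1 stands at 92.8 and 86.2 in the G-MDSC arrays against 39.8 and 31.3 in neutrophils, Lmo2 is above 88 in all 4 arrays, and Sox4 shows no probe set with separate groups.

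The gap between the G-MDSC arrays was itself wide for Prom1, whose signal was 2.40-fold higher in replicate 1 than in replicate 2. Markers of granulocyte precursors showed a gap of like size. Of 10 tested, 9 were higher in G-MDSC replicate 1, with a median ratio of 2.14, while the median ratio of all genes was 0.98. Mpo, the peroxidase of azurophil granules, differed 2.16-fold between the G-MDSC arrays, Elane, neutrophil elastase, 2.52-fold and Ms4a3, a membrane protein of granulocyte-monocyte progenitors, 2.88-fold. All 10 tested markers of dividing cells were higher in G-MDSC replicate 1 too, with a median ratio of 2.41. Against neutrophils, 8 of the 10 precursor markers and 6 of the 10 dividing-cell markers passed limma's threshold as higher in the G-MDSC arrays. As lower, 0 passed, beside 8.3% of all genes higher and 8.05% lower. Tk1, 1 of these 6 dividing-cell calls, was dim in both neutrophil arrays. It entered the fit through the G-MDSC arrays alone, where it is high, so its call is no independent support. The summed signal of the precursor list was 77928 and 64498 in the G-MDSC arrays and 20506 and 24040 in neutrophils. Chil3, not called and the 1 precursor marker higher in G-MDSC replicate 2, made up 31999 and 39064 of the G-MDSC sums. It made up 17701 and 21713 of the neutrophil sums. The dividing-cell list summed to 22582 and 8567 in the G-MDSC arrays and 5813 and 4285 in neutrophils. The part of both lists in the Prom1 difference was not tested.

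The 5 genes whose values over the 4 arrays ran closest to those of Prom1 were Igha, Ms4a3, 4930438A08Rik, Jchain and Abca13. Closeness was the root mean square difference of log2(signal + 16), each gene centred on its own mean, and was 0.30 for Igha, 0.46 for Ms4a3, 0.48 for 4930438A08Rik, 0.48 for Jchain and 0.50 for Abca13, against a median of 2.28 over all genes. Igha and Jchain belong to antibody-secreting cells, encoding the IgA heavy chain and the joining chain of secreted antibodies, while Abca13 is a lipid transporter. Igha had signals of 5802 and 3869 in G-MDSC and of 247 and 320.2 in neutrophils. Ms4a3 had signals of 3141 and 1092 in G-MDSC and of 144.6 and 187.9 in neutrophils. Genes chosen for this closeness share its order in part: Jchain was lowest in neutrophils replicate 2, with 215.4, against 310 in neutrophils replicate 1. The likeness rests on 4 arrays in 2 groups. Of 9 tested markers of B cells and their precursors, 0 passed limma's threshold, beside 16.4% of all genes. The list's summed signals were 7484 and 7946 in the G-MDSC arrays and 6579 and 9328 in neutrophils. This list was not made to measure antibody-secreting cells, so it does not tell whether they were present.

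**Figure D3:**
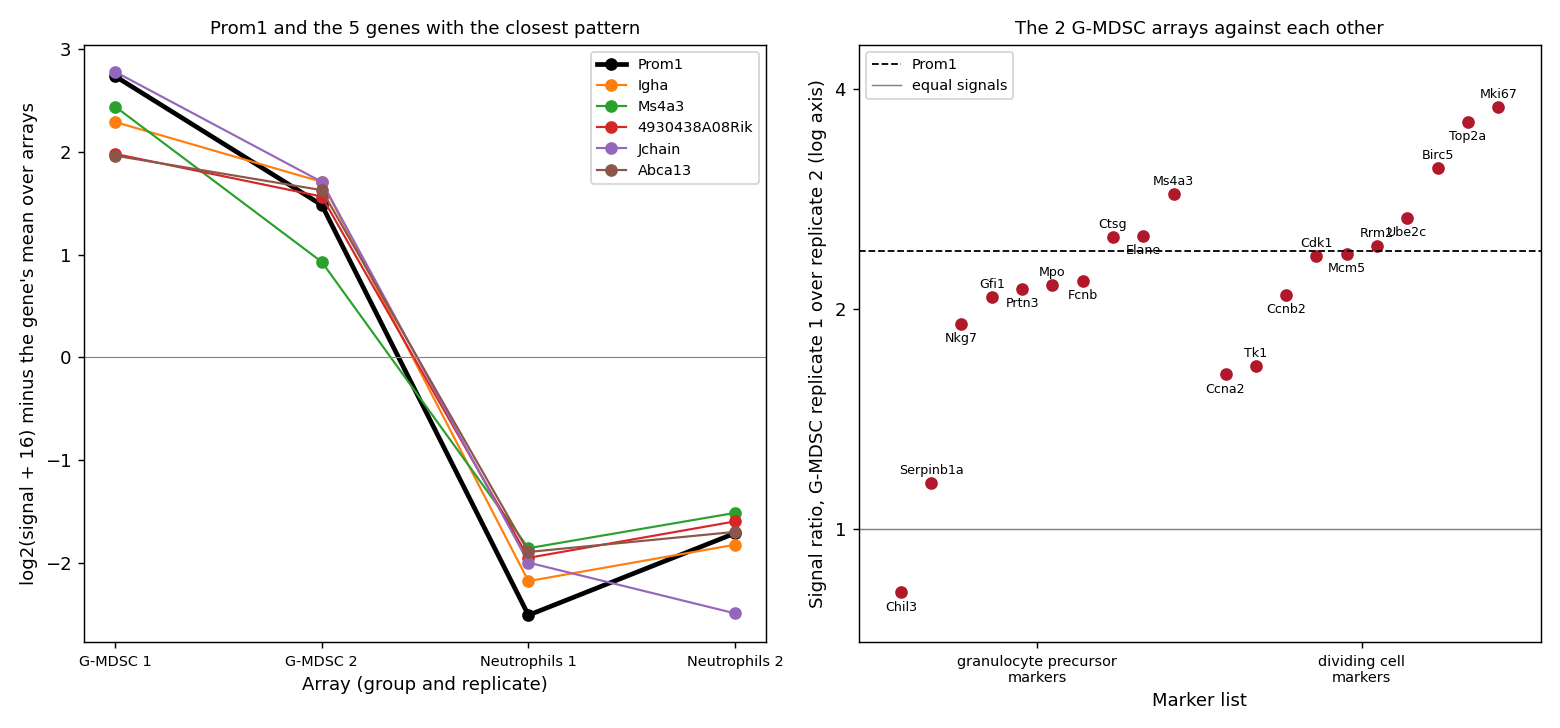
Left, log2(signal + 16) minus each gene's own mean, by array, for Prom1 (black) and the 5 genes with the closest pattern; right, the signal ratio of G-MDSC replicate 1 over replicate 2 (log axis) for 10 granulocyte precursor and 10 dividing-cell markers, with a dashed line at the Prom1 ratio of 2.40. The precursor ratios run from 0.82 to 2.88 and the dividing-cell ratios from 1.63 to 3.78.

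Other genes of the progenitor programme were read from a list of 99 symbols in 6 roles, chosen with earlier results of these data known. Of these, 90 had a single-symbol probe set and 76 were tested. Stem and progenitor transcription factors were the role with the most rises, while several surface antigens fell. In all, 8 of 76 (10.5%) passed limma's threshold as higher in the G-MDSC arrays and 5 (6.58%) as lower, beside 8.3% and 8.05% of all genes, so the list's shares were near the background. The median log2 difference of the list was -0.20, beside -0.18 for all genes. The counts of higher and lower genes depended on the arrays, as did those of all genes. The list gave 3 and 4 without G-MDSC replicate 1, where 3.27% and 4.37% of all genes passed, and 4 and 3 without G-MDSC replicate 2, where 3.89% and 4.27% passed. It gave 19 and 21 when neutrophils replicate 1 was left out, where 18.4% and 26.4% passed, and 12 and 7 without neutrophils replicate 2, where 13% and 11.1% passed.

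Among 21 transcription factors tested, 5 were higher in the G-MDSC arrays and 0 lower, beside 8.3% and 8.05% of all genes. Erg, an ETS factor of stem cells and endothelium, had signals of 391.4 and 214.5 in G-MDSC and of 12.2 and 6.06 in neutrophils, dim in both. It was at least 3.06-fold higher, a bound of 2.06-fold with the common floor or without neutrophils replicate 1 and 4.55-fold without neutrophils replicate 2. Erg entered the fit through the G-MDSC arrays alone, where it is high, so its call is no independent support, and the call was lost when either G-MDSC array was left out. Hhex, a homeodomain factor of early blood cells, had signals of 2871 and 2234 in G-MDSC and of 809.6 and 665.1 in neutrophils. Hhex differed by 1.77 ± 0.32 on the log2 scale (SE, n = 2 per group), with a limma adjusted p of 0.00356. Its call was lost under median scaling, without the intensity trend of limma and with the floor. Myb, which sustains progenitor division, had signals of 1134 and 352.1 in G-MDSC and of 196 and 191.8 in neutrophils, with a difference of 1.63 ± 0.50 (limma adjusted p = 0.0448). Without G-MDSC replicate 1 the Myb difference was 0.81 and without G-MDSC replicate 2 it was 2.45, and its 3 kept probe sets ran from 0.41 to 1.63. The Myb call was lost without G-MDSC replicate 1, with a pseudocount of 64, with no filter and under quantile normalization. It was also lost without the intensity trend, with the median of probe sets, with the fit over all kept probe sets and with the floor. The remaining 2 calls, named after their values were seen, were Ikzf1 and Fli1, with differences of 1.25 and 1.11. The calls of both were lost when either G-MDSC array was left out and under median scaling, and the 2 kept probe sets of Ikzf1 had opposite signs, at -0.70 and 1.25.

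Among 17 surface receptors and antigens tested, 1 was higher and 4 were lower in G-MDSC, beside 8.3% and 8.05% of all genes. Procr, the endothelial protein C receptor used to mark stem cells, had signals of 37.5 and 34.9 in G-MDSC, dim in both, and of 473.2 and 425.6 in neutrophils. Neutrophils had at least 7.14-fold more, or 3.12-fold with the common floor. Procr entered the fit through the neutrophil arrays alone, where it is high, so its call too is no independent support. Cd48, an adhesion antigen that rises as stem cells become progenitors, had signals of 401.2 and 381.6 in G-MDSC and of 1682 and 3555 in neutrophils, a log2 difference of -2.60 ± 0.38 (SE, n = 2 per group). Cd93, a C-type lectin of early progenitors and monocytes, differed by -2.30 ± 0.35 (SE), with 383.2 and 233.9 in the G-MDSC arrays and 1662 and 1421 in neutrophils. Slamf1 (CD150), named after its values were seen, was the last of the 4 lower calls, at -1.71. It was lost without G-MDSC replicate 1 (limma adjusted p = 0.135) and without G-MDSC replicate 2 (limma adjusted p = 0.0605). Cd244a, the gene of the CD48 receptor 2B4, had signals of 6387 and 6970 in G-MDSC and of 2516 and 1914 in neutrophils and was the single higher call, at 1.60 ± 0.30 (SE), while Cd48, its ligand gene, fell. With each array scaled to the same median signal, the calls of Cd48, Cd93, Slamf1 and Cd244a were all lost. Of the 12 surface genes not called, Kit, Notch1 and Il6st, named after their values were seen, came nearest limma's threshold. Kit differed by 1.62 (limma adjusted p = 0.0531), Notch1 by 1.07 (limma adjusted p = 0.0535) and Il6st by -1.26 (limma adjusted p = 0.0714).

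Macrophage markers were lower in G-MDSC as well. Of 11 tested, 10 were lower in the G-MDSC arrays and 0 higher, where 8.05% of all genes were lower and 8.3% higher, and their summed signal was 5970 and 5725 in the G-MDSC arrays and 28367 and 47662 in neutrophils. For mast cells and basophils, 5 of 9 markers fell and 1 rose, and for dendritic cells 4 of 9 fell and 0 rose, against the same shares of all genes. Of the 6 mast cell and basophil calls, 4 were of genes dim in both arrays of the lower group. The summed signals of the mast cell and basophil list were 17297 and 18956 in the G-MDSC arrays and 39185 and 30337 in neutrophils. Most of each sum came from Hdc, which was not called. Hdc had signals of 15256 and 18052 in the G-MDSC arrays and 24350 and 24016 in neutrophils. The summed signals of the dendritic cell list were 4829 and 4891 in the G-MDSC arrays and 11531 and 9051 in neutrophils. No marker of these lists was dim in all arrays and no signal in the table was at 0. Of 9 megakaryocyte and platelet markers 2 fell and 0 rose, beside 8.05% and 8.3% of all genes. Their summed signal was 1614 and 1427 in the G-MDSC arrays and 6704 and 19716 in neutrophils. The part of these 4 lists in the lower progenitor genes was not tested. Of 6 endothelial markers tested 0 passed, beside 16.4% of all genes. Their summed signal, over the 10 measured, was 1054 and 804 in the G-MDSC arrays and 959.1 and 1497 in neutrophils.

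Of 11 genes around the LMO2 complex, 2 were higher and 1 was lower in G-MDSC, beside 8.3% and 8.05% of all genes. Lmo2 itself was level. Lmo1, a close relative of Lmo2, had signals of 675.4 and 480.3 in G-MDSC and of 113.1 and 143.7 in neutrophils, a log2 difference of 2.03 ± 0.40 (SE, n = 2 per group; limma adjusted p = 0.00562), lost without G-MDSC replicate 1 (limma adjusted p = 0.207). Lmo4, another LIM-only gene, read 4466 and 4609 in the G-MDSC arrays and 1912 and 2044 in neutrophils, a difference of 1.19 ± 0.29 (SE). The Lmo4 call was lost without G-MDSC replicate 1 or replicate 2 and under median scaling (limma adjusted p = 0.21). It was also lost without the intensity trend and with the floor. Cbfa2t3, the ETO2 co-repressor of TAL1 complexes, read 670.5 and 384 in the G-MDSC arrays and 1883 and 1004 in neutrophils. Its difference was -1.41 ± 0.40 (SE), and its 3 kept probe sets ran from -1.41 to -0.97. The Cbfa2t3 call was kept in 9 of 15 alternatives. It was lost without G-MDSC replicate 2, where the difference was -1.02, and under median scaling (limma adjusted p = 0.581). Other losses came without the intensity trend, with the median of probe sets, with the fit over all kept probe sets and with the floor. Ldb1, the partner that LMO2 bridges, differed by 1.15 ± 0.36 (SE) and narrowly missed the threshold of limma. It was named after its values were seen.

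The roles around HOXA9 and MEIS1, around SOX4 and around the surface members gave no call by limma, where 16.4% of all genes were called. Of the 15 partners, neighbours and regulators of HOXA9 and MEIS1, the brightest were Pbx2, a homeodomain partner, and Kmt2a, the histone methyltransferase upstream of HOXA genes. Pbx2 differed by 0.99 ± 0.34 (SE, n = 2 per group; limma adjusted p = 0.0709) and Kmt2a by 0.47 ± 0.37 (SE; limma adjusted p = 0.429). Among 7 relatives and co-factors of SOX4, Ctnnb1, which encodes beta-catenin, differed by 0.30 ± 0.34 (SE) and Sox12, a close relative, by -0.50 ± 0.61 (SE). Among 5 relatives of the surface members, Csf1r, the macrophage growth factor receptor of the same kinase class as FLT3, differed by -0.59 ± 0.29 (SE) and Crkl, a signalling adaptor, by 0.45 ± 0.33 (SE).

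**Figure D4:**
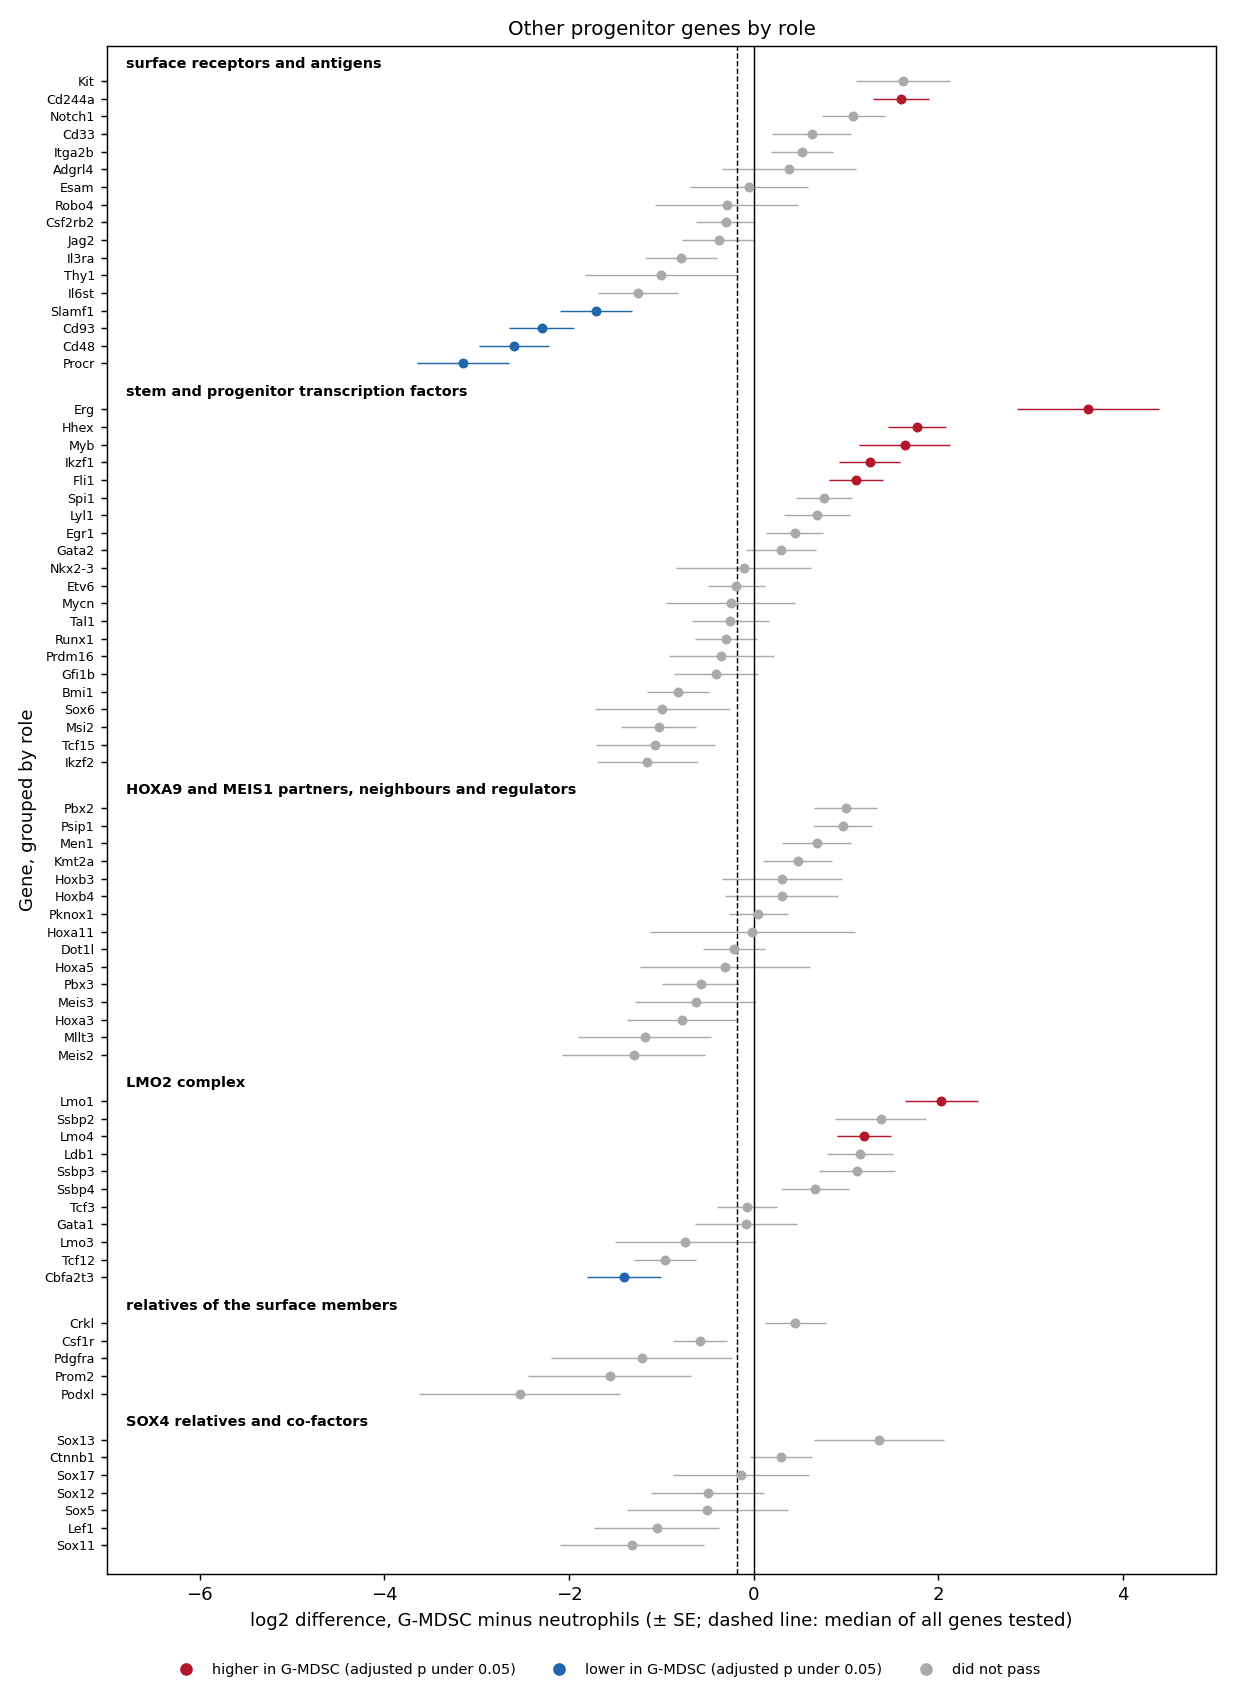
log2 difference of G-MDSC minus neutrophils with its standard error (n = 2 per group) for the 76 tested genes of the list, grouped by role; red points passed limma's threshold as higher in G-MDSC, blue points as lower, grey points did not pass, and the dashed line marks the median of all genes tested, -0.18. The 8 red points are 5 transcription factors, Cd244a, Lmo1 and Lmo4, and the 5 blue points are 4 surface antigens and Cbfa2t3.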

How the data were processed

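Total RNA of 4 samples, 100 ng each, was measured on 1 Affymetrix array per sample. The deposited values are linear intensity signals. The submitters' processing notes name GCOS 1.4 and MAS5, Affymetrix software that summarises each probe set. Their mean without the lowest and highest 2% of the 45101 probe sets is 500 on each array, so the arrays were already scaled, and they were not scaled again. Arrays carry no read depth, and 2 arrays per group limit the precision. The 34945 probe sets with 1 gene symbol in the platform annotation name 18193 genes, and the 7 members matched the RefSeq table of GRCm38.p6 by gene ID, which was used for names. Promoter sequences are from RefSeq.

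Signals were analysed as log2(signal + 16), which understates changes of dim genes. Probe sets above the 40th percentile of their array in at least 2 of 4 arrays were kept (28754), and the brightest kept probe set stood for its gene (13139 genes). Differences were fitted with limma 3.58.1 in R 4.3.3 (lmFit, eBayes with an intensity trend, two-sided, Benjamini-Hochberg over all genes, threshold 0.05). The functions were tested on simulated data. With 2 arrays on each side the smallest two-sided p of an exact permutation test is 0.33, so none was run. Where both arrays of a group were dim, a fold is a lower bound, taken from the mean log2 of the brighter arrays over that of the dim ones, each raised to the 40th percentile of its array. Summed signals of a marker list cover all its measured genes, tested or not.

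Members and lists were chosen with earlier results of these data known. Named genes were the members; per role, up to 3 called genes per direction with the largest differences, or the 2 brightest tested genes where none was called; and the 5 genes closest in pattern to Prom1. The 15 alternatives comprised other pseudocounts, filters, scalings, variance models and choices of probe set, a floor, the replicate number as a block, and each array left out. Python 3.11.15 drew the figures and searched the motifs.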

Additional observations from a re-analysis of the deposited data

How the results depend on the processing

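Prom1 stayed between 3.59 and 4.85 on the log2 scale under all 15 alternatives, and Hoxa9 (from -3.06 to -0.97) and Cd34 (from -1.96 to -0.34, over 14) stayed negative. The sign turned under 2 alternatives for Flt3, 4 for Sox4, 2 for Meis1 and 3 for Lmo2, zeros included. Over all genes, limma called 1091 higher and 1058 lower in G-MDSC. Median scaling gave 915 and 395, moving the median difference of all genes to 0.42, and 7 and 1 in the wider progenitor list, against 8 and 5. Of those 7, 3 were among the 8 and 4 were other genes. Quantile normalization moved that median to 0.03. Without the intensity trend limma called 148 and 331 genes (list 1, Erg, and 3, Procr, Cd48 and Cd93). The fit over all kept probe sets called 679 and 729 (list 5 and 4). The floor in place of the pseudocount left 0 calls by limma, with 3224 genes at an unadjusted p under 0.05, and 0 and 0 in the list. The replicate block gave 1699 and 1607 genes and 16 and 9 in the list. Deviations of same-numbered arrays correlated at 0.24, but with 2 pairs the arrays share only a number. With 1 array left out, calls ran from 429 to 2419 higher and from 561 to 3472 lower, and list calls from 3 to 19 and from 3 to 21, the lone array being assumed to vary like the other group. The causes were not tested. Signals near the dim limit bound what can be said of Cd34, Flt3, Sox4, Hoxa9 and Meis1.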
